A study of Caenorhabditis elegans with 12 samples.

Results

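The genotype by age interaction asks, for each gene, whether the change between day 1 (D1) and day 6 (D6) of adulthood differed between glp-1 mutants and wild-type (WT) Caenorhabditis elegans. It is the D6 minus D1 change in glp-1 minus the D6 minus D1 change in WT, on the log2(FPKM + 1) scale, where FPKM is the number of fragments scaled to gene length and to library size. All 12 libraries of the series entered it, 3 in each of 4 groups of whole worms. The groups were glp-1(e2141) at D6, glp-1(e2141) at D1, WT (strain N2) at D6 and WT at D1. Of 20257 genes listed, 13614 reached 1 FPKM in at least 3 libraries and were tested. A positive value means that a gene went up more, or down less, with age in glp-1 than in WT.

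All 4 groups were raised at 25 °C to D1 on bacterial lawns. The labels give 20 °C, 21 °C and 22 °C after D1 for replicates 1, 2 and 3 of both D6 groups, whereas the series' design text gives 20 °C for all. Age and the shift to a cooler temperature therefore cannot be told apart in either genotype. The e2141 allele is temperature-sensitive, so that WT worms were grown at the temperature that removes the germline from the mutant. Whether the 3 libraries of a group were grown as separate cultures is not stated in the labels, and p-values therefore measure the spread between libraries, which may be partly technical.

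GLP-1 is a Notch receptor that keeps germline stem cells dividing, and worms that lose it as larvae grow up with almost no germ cells and live long. That long life is known to need the transcription factor DAF-16, steroid hormone signalling through DAF-12 and changes in lipid metabolism and protein quality control of the soma, above all in the intestine. A WT hermaphrodite of the same ages makes oocytes, yolk and embryos and uses up the sperm it made as a larva. An interaction in RNA of whole worms joins both processes, and fewer cells of a type cannot be told apart from less RNA per cell.

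Labels and markers were checked before the results. The glp-1 gene had 5.44 to 6.69 FPKM in glp-1 D6, 3.21 to 3.38 in glp-1 D1, 96.9 to 99.3 in WT D6 and 64.4 to 68.7 in WT D1. Across 82 genes of germline, oocyte and cell cycle, the median level as a percent of WT of the same age was 1.41% and 0.822% in glp-1 D6 libraries 1 and 3, 0.224% in glp-1 D6 library 2 and 0.134% to 0.237% in glp-1 D1. The 82 genes leave out perm-2 and perm-4, which the oocyte and eggshell list below includes. Of these 82 genes 72 were lowest, among the glp-1 D6 libraries, in library 2. Of the cuticle collagens tested 82 were highest, among the glp-1 D6 libraries, in library 3, with median collagen levels of 2.24, 0.796 and 7.42 FPKM in libraries 1, 2 and 3. Estimated depth was similar across libraries, at 17 to 20.3 M fragments (M, mega). Results on germline genes and collagens are given with and without glp-1 D6 libraries 1 and 3.

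Many genes aged differently in the mutant. The interaction was called for 6468 of 13614 genes (47.5%) at a Benjamini-Hochberg adjusted p under 0.05 in limma. It was higher in glp-1 for 4205 genes (30.9%) and lower for 2263 (16.6%), and 2347 genes differed at least 2-fold, 1806 higher and 541 lower. With age, 5318 genes rose (39.1%) and 2126 fell (15.6%) in glp-1, while 4773 rose (35.1%) and 3085 fell (22.7%) in WT. The median interaction over all genes was 0.15. FPKM are shares of the RNA sequenced, and the balance between higher and lower calls turned with the scaling. Levels scaled to muscle and neuron genes gave 2118 higher and 5254 lower calls and moved the median of all genes by -0.43, and quantile normalization gave 2860 higher and 3146 lower calls and moved it by -0.20. On the muscle and neuron scale the change with age of a typical gene shifted by 0.34 in glp-1 and by 0.80 in WT, so a WT decrease smaller than about that shift turned into an increase there. The genes behind this scale are no fixed reference. Body wall muscle genes had median changes with age of -0.88 in glp-1 and -1.50 in WT. On the deposited scale 16 of 25 muscle and 10 of 22 neuron genes were called higher, and the scale moves other genes lower by that difference. Of the calls, 1806 higher and 1793 lower ones were kept under all 4 other scalings.

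The interaction calls fell into classes by what happened in each genotype. The largest class, with 1405 genes, rose in glp-1 and was not called in WT. Another 1153 genes fell in WT and were not called in glp-1, 950 rose in WT only and 587 fell in glp-1 only. Genes that moved the same way in both genotypes numbered 877 with a larger change in glp-1 and 504 with a smaller one. Opposite changes were called for 875 genes. Of these, 554 rose in glp-1 and fell in WT (4.07% of genes tested) and 321 fell in glp-1 and rose in WT (2.36%). The order of these 2 classes turned on 2 scales, with 1.04% and 3.13% of genes on the muscle and neuron scale and 2.26% and 3.26% after quantile normalization.

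**Figure D1:**
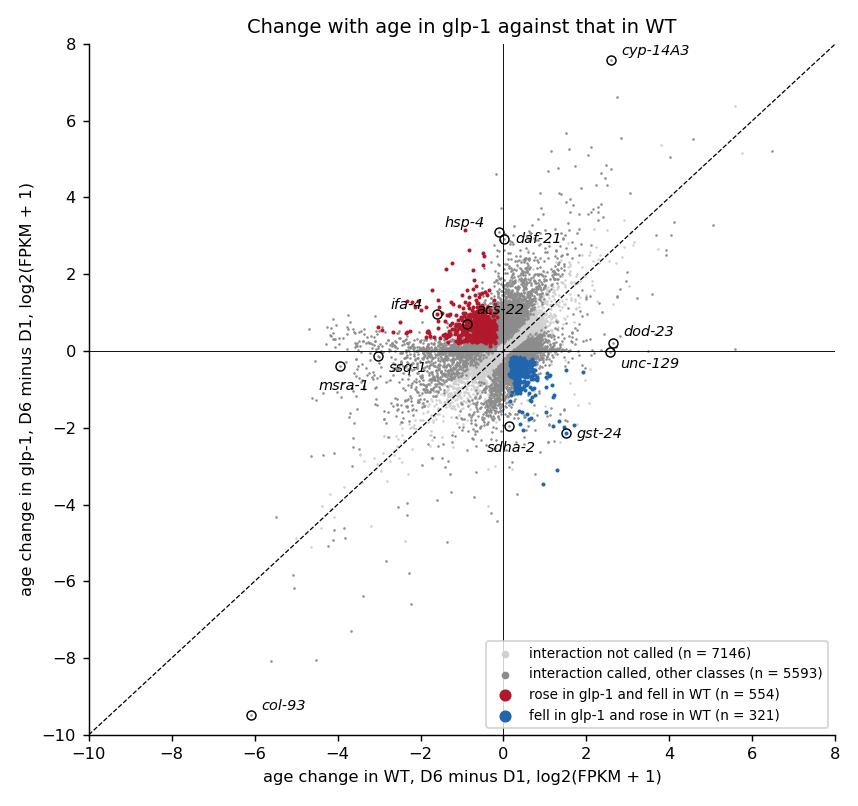
Change with age (D6 minus D1, log2(FPKM + 1)) of each of the 13614 genes tested, in glp-1 on the vertical axis and in WT on the horizontal axis. The dashed line marks equal changes; 554 genes lie in the upper left with opposite calls and 321 in the lower right, and named genes are circled.

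Few of the opposite calls held on every scale. Of the 554 genes that rose in glp-1 and fell in WT, 40 kept both calls under all 4 other scalings, and of the 321 genes with the reverse pattern 31 did. The muscle and neuron scale alone kept 83 and 72 of them. The genes named first below are those with the largest interactions in each class that had a mean of at least 1 FPKM in every group and no overlap between ages in either genotype.

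Coordinates are those of the annotation of assembly WBcel235. Among genes that rose in glp-1 and fell in WT was ifa-4 (chromosome X, 4912308 to 4915979, minus strand), which encodes an intermediate filament protein. It had 40.8, 43.4 and 42.4 FPKM in the glp-1 D6 libraries, 20.8, 20.5 and 22.3 FPKM in glp-1 D1, 11.3, 9.87 and 10.51 FPKM in WT D6 and 36.3, 33 and 32.3 FPKM in WT D1. No libraries of the 2 ages overlapped in either genotype, as the rule for naming required, and the order of the genotypes turned round between D1 and D6. Its change with age was 0.96 (SE 0.08) in glp-1 and -1.59 (SE 0.08) in WT, an interaction of 2.56 (SE 0.11, adjusted p = 2.21e-08).

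The gene hbl-1 (chromosome X, 5822142 to 5827755, plus strand), a hunchback-like transcription factor known for timing larval development, crossed in the same way. Its levels were 7.07, 6.42 and 6.73 FPKM in the glp-1 D6 libraries, 2.69, 3.50 and 2.90 FPKM in glp-1 D1, 2.61, 3.49 and 2.71 FPKM in WT D6 and 7.07, 10.9 and 9.49 FPKM in WT D1. Glp-1 worms at D6 and WT worms at D1 were high and the other 2 groups low, for an interaction of 2.3 (SE 0.21, adjusted p = 4.15e-06). A further gene of this class, ppt-1 (chromosome V, 6624701 to 6626344, minus strand), encodes palmitoyl-protein thioesterase, a lysosomal enzyme that removes fatty acids from proteins. Its levels were 8.36, 9.49 and 9.20 FPKM in the glp-1 D6 libraries, 3.65, 4.27 and 4.85 FPKM in glp-1 D1, 0.977, 1.24 and 0.999 FPKM in WT D6 and 4.91, 3.10 and 4.75 FPKM in WT D1. The D1 libraries of the genotypes overlapped and those of D6 did not, and the interaction was 2.26 (SE 0.21, adjusted p = 4.84e-06). The cytochrome P450 gene cyp-14A5 (chromosome V, 5421018 to 5423282, minus strand) also had overlapping D1 libraries in the 2 genotypes and averaged 41.8 ± 6.95 FPKM in glp-1 D6 against 6.80 ± 0.964 in WT D6, with an interaction of 2.25 (SE 0.19, adjusted p = 1.69e-06). These 4 genes kept their opposite calls under all 4 other scalings.

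Another 4 genes of the class lost the opposite call on 1 scale each. The acyl-CoA synthetase gene acs-3 had 14.8 ± 0.486 FPKM in glp-1 D6, 4.69 ± 0.0804 in glp-1 D1, 3.27 ± 0.207 in WT D6 and 7.72 ± 2.04 in WT D1, an interaction of 2.47 (SE 0.21, adjusted p = 1.72e-06). For the tyrosinase gene tyr-1 the interaction was 2.34 (SE 0.17, adjusted p = 5.77e-07), and glp-1 D6 worms held 47.6 ± 4.35 FPKM against 4.89 ± 0.381 in WT D6. For a second cytochrome P450 gene, cyp-25A3, it was 2.55 (SE 0.19, adjusted p = 7.39e-07). In these 3 genes the WT decrease was not called on the muscle and neuron scale. The sperm-specific family gene ssp-10 had the largest value under these conditions, 2.77 (SE 0.18, adjusted p = 4e-07), with 21.6 ± 2.3 FPKM in glp-1 D6, 14.9 ± 2.46 in glp-1 D1, 5.34 ± 0.712 in WT D6 and 29.4 ± 2.79 in WT D1; its rise in glp-1 was small and was not called after quantile normalization.

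In the reverse class, gst-24 (chromosome II, 13610443 to 13611366, minus strand), a glutathione S-transferase of detoxification, differed most under the same conditions. Its levels were 13.1, 12.9 and 12.4 FPKM in the glp-1 D6 libraries, 59.9, 54 and 65.8 FPKM in glp-1 D1, 10.9, 14.9 and 14.5 FPKM in WT D6 and 2.66, 6.03 and 4.03 FPKM in WT D1. It was high in glp-1 at D1 only, and both genotypes met at D6, so that the interaction was -3.64 (SE 0.27, adjusted p = 7.7e-07). The UDP-glucuronosyltransferase gene ugt-31 behaved alike, with 5.69 ± 0.665 FPKM in glp-1 D6, 26.7 ± 2.3 in glp-1 D1, 5.19 ± 0.474 in WT D6 and 3.49 ± 0.496 in WT D1 and an interaction of -2.52 (SE 0.17, adjusted p = 4.87e-07).

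Genes of germ cells were in this class too, at low levels in the mutant. The gene prg-1 encodes a Piwi Argonaute that binds piRNAs in the germline. It had 4.1, 2.50 and 4.50 FPKM in the glp-1 D6 libraries, 12.9, 16 and 15.9 FPKM in glp-1 D1, 193, 199 and 198 FPKM in WT D6 and 127.97, 124.4 and 131.04 FPKM in WT D1. The libraries of the 2 ages did not overlap in either genotype, as the rule for naming required, and the interaction was -2.40 (SE 0.19, adjusted p = 1.46e-06). The centrosome scaffold gene spd-5 had 3.001 ± 0.595 FPKM in glp-1 D6, 13.9 ± 1.89 in glp-1 D1, 134.4 ± 3.06 in WT D6 and 102.4 ± 6.23 in WT D1, an interaction of -2.29 (SE 0.16, adjusted p = 4.52e-07), with the opposite call lost after quantile normalization. Both genes were lowest in glp-1 D6 library 2, like most germline genes, with prg-1 at 2.50 and spd-5 at 2.49 FPKM.

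The other genes of this class were the Nudix hydrolase gene ndx-3, the gene tag-281 and the collagens col-180 and col-111. For ndx-3 (chromosome II, 4953589 to 4954503, plus strand) the levels were 5.60 ± 0.294 FPKM in glp-1 D6, 13.6 ± 0.842 in glp-1 D1, 19.5 ± 0.904 in WT D6 and 11.3 ± 1.93 in WT D1, and for tag-281 (chromosome II, 12459761 to 12460554, plus strand) they were 1.61 ± 0.226 FPKM in glp-1 D6, 4.97 ± 0.563 in glp-1 D1, 17.8 ± 0.659 in WT D6 and 10.8 ± 1.03 in WT D1. The interactions were -1.89 (SE 0.16, adjusted p = 1.84e-06) and -1.87 (SE 0.16, adjusted p = 2.39e-06). For col-180 it was -3.15 (SE 0.60, adjusted p = 0.0012), with glp-1 D6 libraries at 1.91, 0.519 and 5.46 FPKM, and for col-111 -1.97 (SE 0.44, adjusted p = 0.00291), with glp-1 D6 libraries at 1.54, 0.792 and 2.99 FPKM. Like the collagens as a group, both were highest in library 3 of glp-1 D6. The genes gst-24, ugt-31, prg-1, ndx-3 and tag-281 kept opposite calls under all 4 other scalings; col-180 lost the call under median-of-ratios scaling and col-111 on the muscle and neuron scale.

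**Figure D2:**
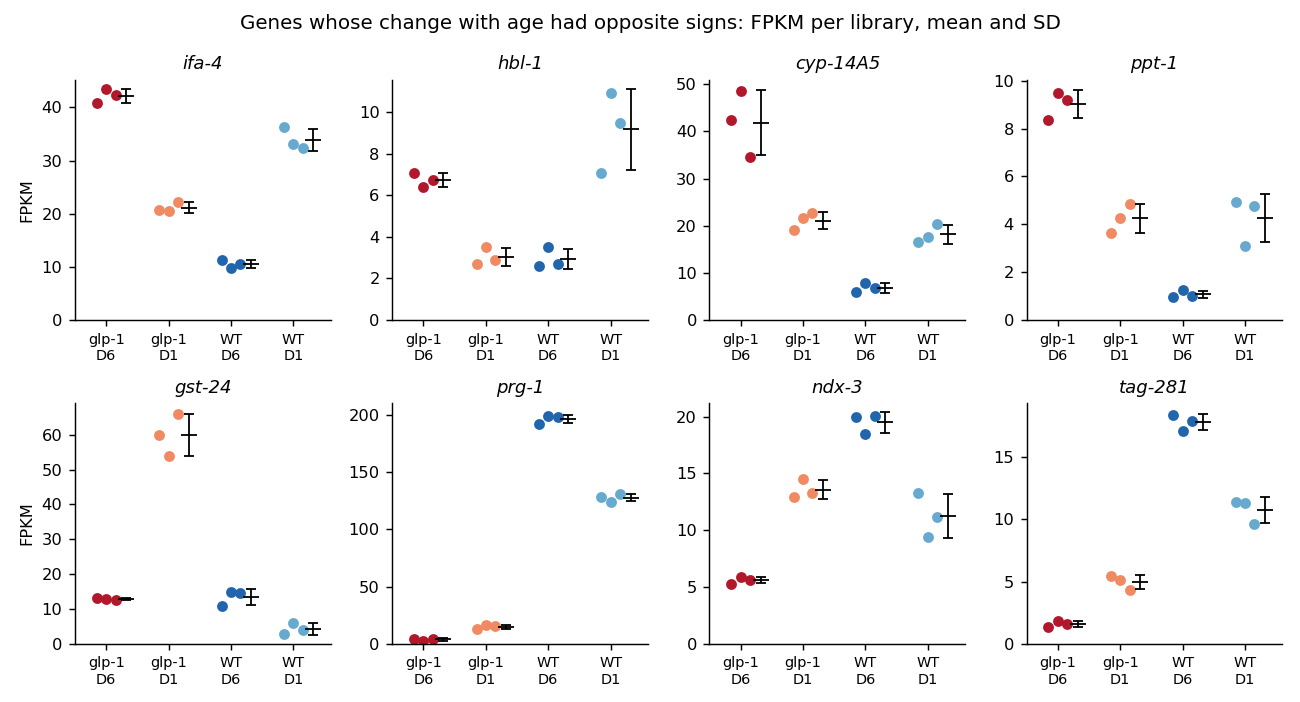
FPKM in each library (points) with mean and SD (bars, n = 3) for 4 genes that rose in glp-1 and fell in WT (upper row) and 4 that fell in glp-1 and rose in WT (lower row). In ifa-4, glp-1 D6 libraries sit at 40.8 to 43.4 FPKM above glp-1 D1 at 20.5 to 22.3, while WT D6 libraries sit at 9.87 to 11.3 below WT D1 at 32.3 to 36.3.

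In the gene lists that follow, counts can be read against 30.9% higher and 16.6% lower calls and a median interaction of 0.15 over all genes tested. Of 49 sperm genes listed 43 were tested, and of these 3 had a mean of at least 1 FPKM in all 4 groups, so that the others were low in at least 1 group and the counts are given as a description. The 43 were called higher, with a median of 3.84, a median change with age of 0.31 in glp-1 and -3.59 in WT. Summed over the 43 genes, levels were 49.2, 50.6 and 113.3 FPKM in glp-1 D6, 42.8, 44.5 and 46.2 in glp-1 D1, 59.3, 47.99 and 94.2 in WT D6 and 1497, 1312 and 1037 in WT D1. WT D1 alone was high, the 2 D6 groups overlapped, and glp-1 D1 lay just below them. Without glp-1 D6 libraries 1 and 3 the median was 3.45. Of the 43 genes 2 rose in glp-1, ssp-10 and spe-11. The major sperm protein gene msp-31, which encodes the motor and signal protein of nematode sperm, had 4.13 ± 2.23 FPKM in glp-1 D6, 1.71 ± 0.422 in glp-1 D1, 2.27 ± 1.82 in WT D6 and 50.9 ± 4.29 in WT D1, an interaction of 4.97 (SE 0.48, adjusted p = 6.73e-06). Copies of this family are nearly identical, so single msp genes are uncertain. The sperm-specific family gene ssq-1 had 15.7, 14.3 and 16.7 FPKM in the glp-1 D6 libraries, 16.494, 17.4 and 17.2 FPKM in glp-1 D1, 4.97, 3.70 and 4.71 FPKM in WT D6 and 46.3, 47.5 and 36.7 FPKM in WT D1. The change with age in glp-1 was not called, at -0.13, and the interaction was 2.90 (SE 0.17, adjusted p = 1.71e-07).

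Chaperones of the cytosol rose with age more in glp-1 than in WT. Of 25 genes tested 17 had a higher interaction and 2 a lower one, with a median of 0.63. With age 19 of the 25 rose in glp-1 and 11 in WT, and the others were not called. The gene daf-21 encodes HSP90, the abundant chaperone of signalling proteins. It had 503, 491 and 535 FPKM in the glp-1 D6 libraries, 65.8, 68.6 and 66.4 FPKM in glp-1 D1, 1615, 1565 and 1572 FPKM in WT D6 and 1551, 1580.0 and 1567 FPKM in WT D1. Glp-1 D1 libraries were lowest by far, glp-1 D6 libraries intermediate and both WT ages high and level, with an interaction of 2.89 (SE 0.07, adjusted p = 1.26e-10). The same order held for hsp-1, a constitutive HSP70, with 556 ± 37.4 FPKM in glp-1 D6, 168.3 ± 9.87 in glp-1 D1, 1549 ± 76.7 in WT D6 and 1567 ± 26.3 in WT D1 and an interaction of 1.74 (SE 0.09, adjusted p = 9.47e-08). Their partners followed, among them the HSP40 gene dnj-13 at 1.67 (SE 0.13, adjusted p = 9.35e-07) and hsp-110, a nucleotide exchange factor of HSP70, at 1.2 (SE 0.12, adjusted p = 5.93e-06). Subunits of the CCT chaperonin, which folds actin and tubulin, had smaller interactions, for example cct-5 at 0.56 and cct-3 at 0.88. The prefoldin genes pfd-6 (-0.50) and pfd-2 (-0.30) were the 2 lower members. On the muscle and neuron scale 8 of the 25 were higher and 5 lower, with a median of 0.14, and the call of cct-5 was lost (0.12). The call of pfd-2 was lost when any of 5 single libraries was left out (adjusted p = 0.057 to 0.066 in limma).

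Chaperones of the endoplasmic reticulum rose in glp-1 too. The gene hsp-4 encodes BiP, the HSP70 of that compartment and the standard reporter of its unfolded protein response. It had 304, 359.6 and 309 FPKM in the glp-1 D6 libraries, 39.1, 34.5 and 37.3 FPKM in glp-1 D1, 256, 241 and 263 FPKM in WT D6 and 269.6, 267 and 280.8 FPKM in WT D1. Glp-1 worms at D1 were low, the other 3 groups lay near each other without overlap, and the interaction was 3.20 (SE 0.10, adjusted p = 1.31e-09). In the list of 19 mitochondrial and endoplasmic reticulum chaperones and their regulators, 11 were higher and 3 lower on the deposited scale (median 0.68). On the muscle and neuron scale 9 were higher and 7 lower (median 0.25). Higher members were the HSP90 of the endoplasmic reticulum, enpl-1, at 1.54 (SE 0.09, adjusted p = 1.71e-07), the sensor kinase pek-1 at 1.24, the transcription factor xbp-1 at 0.92 and calreticulin, crt-1, at 0.94. Opposite calls were made for the second BiP gene hsp-3, the protein disulfide isomerase genes pdi-2 and pdi-6 and for dnj-7, whose interactions were 1.03, 0.99, 0.90 and 1.08; on the muscle and neuron scale none of these 4 fell in WT. The 3 lower members were mitochondrial, namely the chaperonin hsp-60 at -0.66 (SE 0.14, adjusted p = 0.00164), dnj-10 at -0.85 and the import channel gene timm-23 at -0.47, whereas the mitochondrial HSP70 gene hsp-6 was not called (0.08, adjusted p = 0.454) and read -0.36 on the muscle and neuron scale and -0.25 after quantile normalization.

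Small heat shock proteins were mostly not called. Of 14 tested 4 were higher and 10 not called, the median of 0.17 was near that of all genes, and it turned to -0.15 on the muscle and neuron scale and to -0.24 after quantile normalization. The genes hsp-43 and hsp-17 rose in glp-1 and fell in WT, with interactions of 1.54 (SE 0.10, adjusted p = 3.43e-07) and 1.47 (SE 0.18, adjusted p = 4.01e-05). The heat-inducible gene hsp-16.2 was not called, with 14.7 ± 5.57 FPKM in glp-1 D6, 9.09 ± 2.69 in glp-1 D1, 5.35 ± 0.463 in WT D6 and 2.52 ± 0.741 in WT D1 and an interaction of -0.26 (SE 0.37, adjusted p = 0.593).

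Genes of mitochondrial energy metabolism fell with age in glp-1 far more than in WT. Of 30 oxidative phosphorylation genes tested 28 were lower and 2 not called, with a median interaction of -1.04. With age 28 of the 30 fell in glp-1 (median change -1.19), and 15 fell in WT (median -0.18). Summed over the list, levels were 3923, 3714 and 4106 FPKM in glp-1 D6, 9448, 9331 and 10094 in glp-1 D1, 8551, 8458 and 8656 in WT D6 and 9795, 9769 and 9177 in WT D1. Only the glp-1 D6 libraries stood apart, and the other 3 groups lay close together. The catalytic ATP synthase gene atp-2 had 363, 336 and 369.6 FPKM in the glp-1 D6 libraries, 1004, 1024 and 1078 FPKM in glp-1 D1, 1216, 1154 and 1259.6 FPKM in WT D6 and 1415, 1489 and 1373 FPKM in WT D1. Its interaction was -1.3 (SE 0.08, adjusted p = 3.47e-07). The complex I gene nuo-1 had -1.03 (SE 0.07, adjusted p = 6.71e-07), the Rieske protein gene isp-1 of complex III -0.91 (SE 0.09, adjusted p = 7.69e-06), and cytochrome c1, cyc-1, -1.22. The succinate dehydrogenase gene sdha-2 had the lowest value, -2.09 (SE 0.10, adjusted p = 5.57e-08), from levels of 2.87 ± 0.266 FPKM in glp-1 D6, 14 ± 0.162 in glp-1 D1, 102.7 ± 4.55 in WT D6 and 94 ± 4.06 in WT D1. The complex I gene gas-1 was not called; its change with age was -1.16 in glp-1 and -1.11 in WT, and its interaction read -0.47 on the muscle and neuron scale and 0.51 after quantile normalization.

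Genes of the tricarboxylic acid cycle, which feeds the respiratory chain, were lower too. Of 17 genes tested 14 were lower and 2 higher, with a median of -0.74, and all 17 fell with age in glp-1 while 9 fell in WT. The mitochondrial malate dehydrogenase gene mdh-2 had 139.2 ± 7.65 FPKM in glp-1 D6, 506 ± 23.3 in glp-1 D1, 420.4 ± 28.3 in WT D6 and 541 ± 25.9 in WT D1, an interaction of -1.49 (SE 0.09, adjusted p = 3.24e-07), and the citrate synthase gene cts-1 -0.86 (SE 0.11, adjusted p = 5.29e-05). One of the 2 higher members was idhg-2, a subunit of isocitrate dehydrogenase, at 0.47; it fell in both genotypes, and its call was lost on the muscle and neuron scale (0.21) and after quantile normalization (0.04). Of 18 glycolysis genes 2 were higher, 7 lower and 9 not called, with a median of -0.07. The balance depended on the scale, with none higher and 12 lower on the muscle and neuron scale (median -0.49), 6 higher and 4 lower after quantile normalization (0.03) and 3 higher and 7 lower at equal FPKM totals (0.01). The enolase gene enol-1 (-0.98, SE 0.08, adjusted p = 2.17e-06) and the phosphoglycerate kinase gene pgk-1 (-0.90, SE 0.09, adjusted p = 4.81e-06) were lower, and the pyruvate kinase gene pyk-2 was higher (0.78, SE 0.11, adjusted p = 0.000104), though not on the muscle and neuron scale (0.38).

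Ribosomal protein genes were lower as well. Of 61 genes of the mitochondrial ribosome, which translates the mitochondrion's own mRNAs, 57 were lower and 4 not called, with a median of -0.81. In glp-1 54 of them fell with age and 1 rose, and in WT 17 rose and the others were not called. Opposite calls were made for 13 of the 61, against 2.36% of all genes. For mrpl-11, of the large subunit, levels were 13.7, 13.7 and 14.4 FPKM in the glp-1 D6 libraries, 28.3, 24.7 and 26.4 FPKM in glp-1 D1, 139.01, 119.6 and 122.9 FPKM in WT D6 and 91.1, 83.7 and 87.2 FPKM in WT D1. Neither genotype had overlapping ages, and the interaction was -1.41 (SE 0.10, adjusted p = 7.18e-07). For mrps-28, of the small subunit, it was -1.4 (SE 0.13, adjusted p = 5.01e-06). These were the 2 of the 13 that kept opposite calls under all 4 other scalings.

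Of 76 cytosolic ribosomal protein genes 66 were lower and 1 higher, with a smaller median of -0.43. With age 72 of the 76 fell in glp-1 (median -0.49) and 10 in WT (median -0.07). Summed over the list, levels were 56629, 52091 and 59477 FPKM in glp-1 D6, 77602, 74450 and 85983 in glp-1 D1, 147939, 141136 and 151548 in WT D6 and 152419, 158523 and 147304 in WT D1. The largest differences were in rpl-39 (-0.98, SE 0.25, adjusted p = 0.00672) and rpl-43 (-0.98, SE 0.15, adjusted p = 0.000213), and rpl-11.2 was the higher member (0.35, SE 0.12, adjusted p = 0.0255), which turned to -0.07 on the muscle and neuron scale and was not called when any of 7 single libraries was left out (adjusted p = 0.0515 to 0.0642 in limma). Among 29 splicing genes 18 were lower and 1, rsp-5, was higher (median -0.37); with age 10 rose in glp-1 and 26 in WT. Scaling to muscle and neuron genes gave 27 lower ones, and rsp-5 was then not called (0.03). The SR protein gene rsp-1 fell in glp-1 and rose in WT, with 28.1 ± 1.91 FPKM in glp-1 D6, 54 ± 0.974 in glp-1 D1, 327 ± 12.7 in WT D6 and 268 ± 5.64 in WT D1 and an interaction of -1.2 (SE 0.08, adjusted p = 4.4e-07). Of 32 proteasome genes 10 were lower, 3 higher and 19 not called, and of 27 translation factor genes 10 were lower, 3 higher and 14 not called, both with a median of -0.11. Proteasome genes gave 23 lower and no higher calls on the muscle and neuron scale (median -0.55), 18 lower and none higher after quantile normalization (-0.27) and 7 lower and 6 higher at equal FPKM totals (-0.04). Translation factor genes gave 20 lower calls and 1 higher call on the muscle and neuron scale (-0.54).

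**Figure D3:**
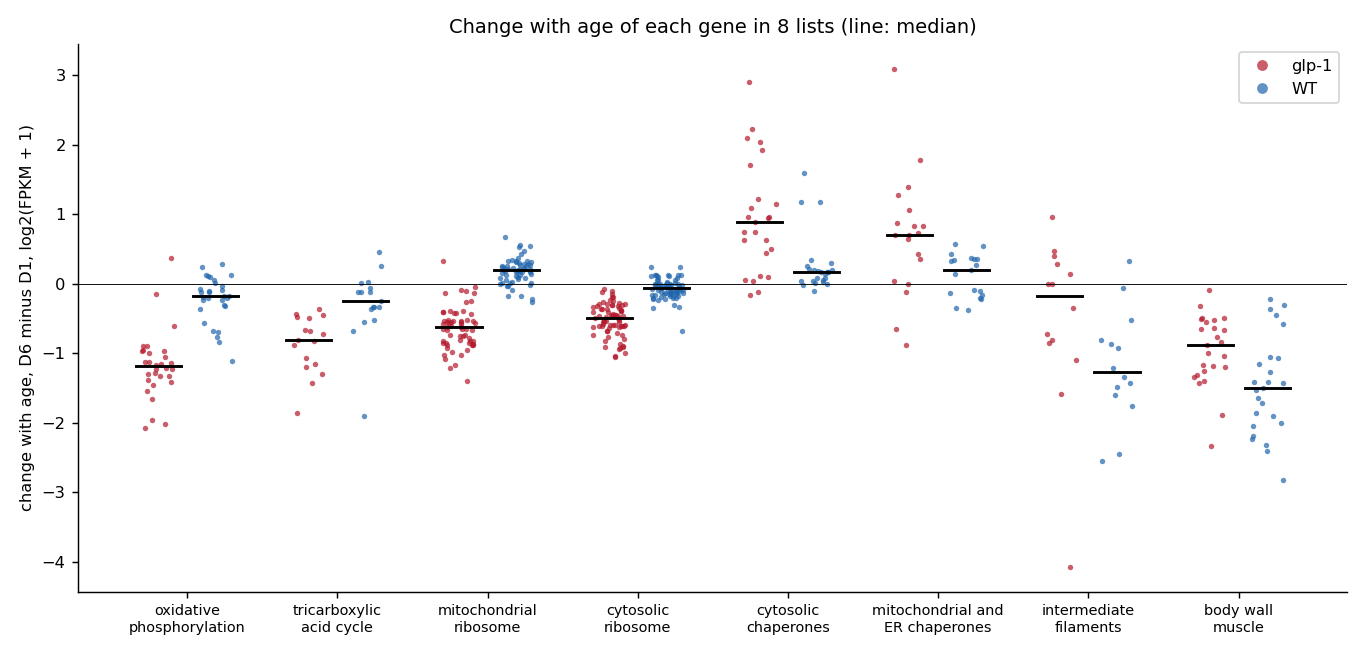
Change with age (D6 minus D1, log2(FPKM + 1)) of each tested gene of 8 lists, glp-1 left of WT, with the median as a line. Medians are -1.19 in glp-1 and -0.18 in WT for oxidative phosphorylation, and 0.89 in glp-1 and 0.17 in WT for cytosolic chaperones.

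Intestinal genes fell in WT and went both ways in glp-1. Of 18 genes tested 11 were higher and 2 lower, with a median interaction of 0.72, and on the muscle and neuron scale 8 were higher and 4 lower (0.39). With age 9 rose and 7 fell in glp-1, against 2 and 13 in WT. The cysteine protease gene cpl-1, of lysosomes, had 4764, 4825 and 4679 FPKM in the glp-1 D6 libraries, 3279, 3217 and 3290.0 FPKM in glp-1 D1, 944, 1010.2 and 1010.5 FPKM in WT D6 and 2026, 2103 and 1810.5 FPKM in WT D1. It rose in glp-1, fell in WT and kept both calls under all 4 other scalings, with an interaction of 1.54 (SE 0.09, adjusted p = 1.29e-07). The gut esterase gene ges-1 was called in opposite directions as well, with 143.8 ± 5.68 FPKM in glp-1 D6, 108.8 ± 5.83 in glp-1 D1, 11.8 ± 1.37 in WT D6 and 23.1 ± 4.23 in WT D1 and an interaction of 1.3 (SE 0.16, adjusted p = 4.06e-05), as was elt-2, the GATA factor that specifies the intestine, at 1.22 (SE 0.16, adjusted p = 4.9e-05); on the muscle and neuron scale neither fell in WT. The intestinal actin gene act-5 fell in both, less in glp-1 (-0.88) than in WT (-2.24). The metallothionein gene mtl-2 was lower (-1.54, SE 0.12, adjusted p = 9.24e-07), with 191 ± 5.89 FPKM in glp-1 D6, 169.1 ± 2.75 in glp-1 D1, 115.96 ± 14.6 in WT D6 and 34.5 ± 2.53 in WT D1.

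Vitellogenins, the yolk proteins that the intestine makes for oocytes, differed further. Of 10 genes of vitellogenins and yolk uptake 8 were higher and 2 not called, with a median of 1.33. Summed over the list, levels were 51190, 49145 and 46409 FPKM in glp-1 D6, 46632, 47738 and 44406 in glp-1 D1, 8088, 8616 and 9533 in WT D6 and 20437, 20942 and 18786 in WT D1. The 2 glp-1 ages overlapped, and WT D6 was lowest. The vitellogenin gene vit-6 had 13828 ± 726 FPKM in glp-1 D6, 12385 ± 376 in glp-1 D1, 2569 ± 240.4 in WT D6 and 6225 ± 490.1 in WT D1, an interaction of 1.44 (SE 0.11, adjusted p = 9.24e-07). For vit-2 the interaction was 1.23 (SE 0.12, adjusted p = 4.45e-06). The genes vit-3, vit-4 and vit-5 are near-identical copies whose single values are uncertain; vit-3 fell in both genotypes, and vit-5 rose in glp-1 (0.76) and was not called in WT (-0.16). The homeodomain gene ceh-60, which promotes vitellogenin expression, had an interaction of 0.998 (SE 0.13, adjusted p = 6.31e-05).

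Of 18 genes that make or desaturate fatty acids 13 were higher and 2 lower, with a median of 0.58, whereas on the muscle and neuron scale 6 were higher and 4 lower, with a median of 0.16. The largest were dgat-2, which makes triglycerides, at 1.79 (SE 0.22, adjusted p = 3.43e-05), and the fatty acid transporter and acyl-CoA synthetase gene acs-22. For acs-22 levels were 249, 292 and 259 FPKM in the glp-1 D6 libraries, 167.6, 170.2 and 147.7 FPKM in glp-1 D1, 27, 28.9 and 26 FPKM in WT D6 and 52.5, 47.6 and 52.7 FPKM in WT D1. Glp-1 rose and WT fell without overlap of ages, and the interaction was 1.59 (SE 0.11, adjusted p = 4.9e-07); on the muscle and neuron scale the WT change of acs-22 was -0.06. The stearoyl-CoA desaturase gene fat-6, which germline-less worms are known to need for long life, had 2079 ± 106.97 FPKM in glp-1 D6, 1518 ± 75.9 in glp-1 D1, 283 ± 2.87 in WT D6 and 331 ± 5.61 in WT D1, an interaction of 0.68 (SE 0.08, adjusted p = 2.05e-05) that was not called on the muscle and neuron scale (0.25), while its partner fat-7 was not called (0.33, adjusted p = 0.209). The fatty acid synthase gene fasn-1 did not pass (-0.06, adjusted p = 0.789) but was lower on the muscle and neuron scale (-0.48).

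Lipases and beta-oxidation were mixed, with 9 higher, 5 lower and 7 not called of 21 and a median of 0.51, and with 8 higher and 8 lower on the muscle and neuron scale (0.07). The peroxisomal beta-oxidation genes acox-3, daf-22, maoc-1 and dhs-28, of which several make ascaroside pheromones, were all higher, at 2.03, 1.65, 1.59 and 1.28. For daf-22 levels were 161.3 ± 11.095 FPKM in glp-1 D6, 219.5 ± 10.53 in glp-1 D1, 23.4 ± 2.13 in WT D6 and 102.8 ± 11.3 in WT D1. The mitochondrial thiolase gene kat-1 was lower (-1.11, SE 0.09, adjusted p = 1.57e-06), as was the adipose triglyceride lipase gene atgl-1, which fell in glp-1 and rose in WT (-0.96, SE 0.14, adjusted p = 0.000173), opposite calls that it kept under 1 of the 4 other scalings, equal FPKM totals. The lysosomal lipase gene lipl-4, known to be induced in long-lived glp-1 worms, had 8.57 ± 1.63 FPKM in glp-1 D6, 1.86 ± 0.283 in glp-1 D1, 0.262 ± 0.0857 in WT D6 and 0.189 ± 0.293 in WT D1, an interaction of 1.62 (SE 0.25, adjusted p = 0.000233) that was not called at a pseudocount of 0.1 FPKM (1.36), whereas lipl-3 was lower (-1.91, SE 0.35, adjusted p = 0.000742).

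**Figure D4:**
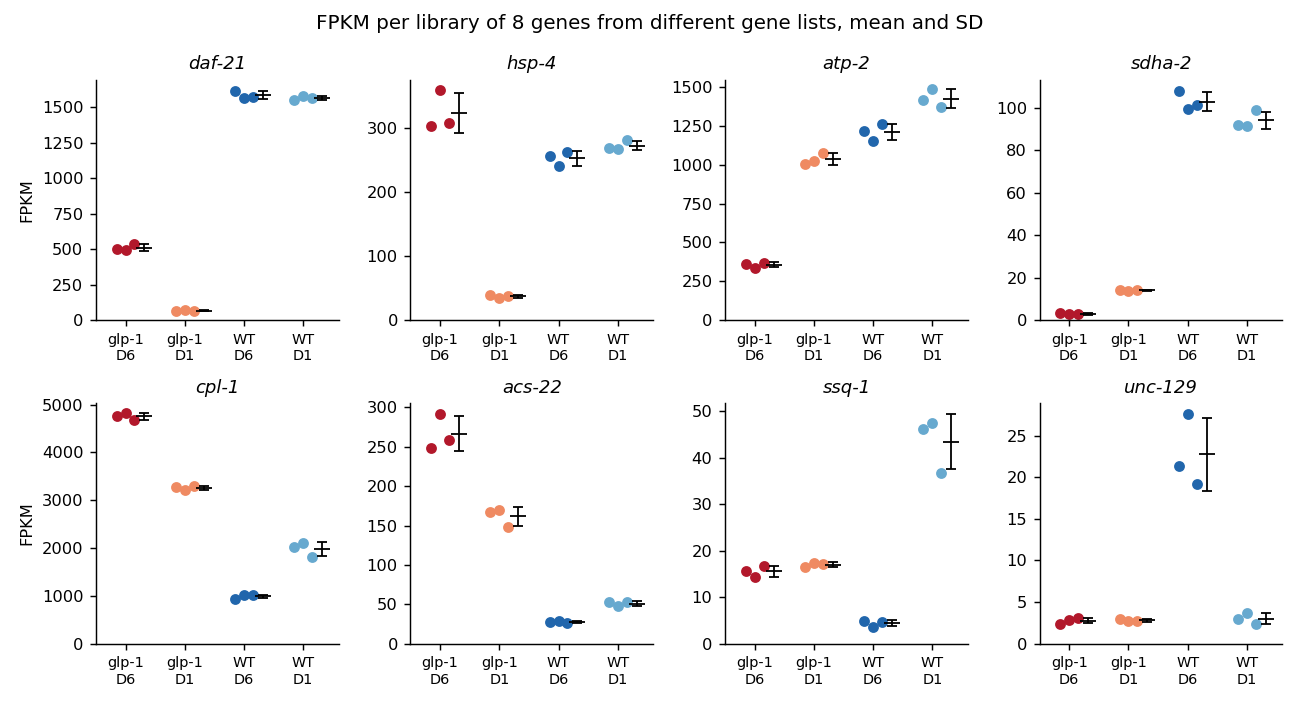
FPKM in each library (points) with mean and SD (bars, n = 3) for 8 genes from different lists, groups in the order glp-1 D6, glp-1 D1, WT D6 and WT D1. HSP90 (daf-21) stands at 491 to 535 FPKM in glp-1 D6 and 65.8 to 68.6 in glp-1 D1, with WT D6 and WT D1 level, while atp-2 is lowest in glp-1 D6.

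Detoxification genes of the cytochrome P450 and UDP-glucuronosyltransferase families were mostly higher. Of 97 tested 63 were higher and 4 lower, with a median of 0.79 that stayed positive under all 4 other scalings; 45 were higher and 8 lower on the muscle and neuron scale and 44 higher and 10 lower after quantile normalization. With age 57 rose and 19 fell in glp-1, against 25 and 42 in WT. Of the 97 genes 64 had a mean of at least 1 FPKM in all 4 groups, and the others were low in at least 1 group. The gene cyp-14A3 had the largest interaction of the list. Its levels were 315, 339 and 331 FPKM in the glp-1 D6 libraries, 1.07, 0.647 and 0.487 FPKM in glp-1 D1, 6.68, 5.54 and 5.98 FPKM in WT D6 and 0.127, 0.211 and 0.201 FPKM in WT D1. It rose in both genotypes, glp-1 D6 libraries stood far above all others, and the D1 libraries were near 0 in WT, with an interaction of 5.001 (SE 0.18, adjusted p = 3.38e-09). The same was seen for ugt-25, with 363 ± 28 FPKM in glp-1 D6, 13.2 ± 1.82 in glp-1 D1, 10.6 ± 1.11 in WT D6 and 4.53 ± 0.442 in WT D1 and an interaction of 3.63 (SE 0.15, adjusted p = 2.32e-08), and for cyp-29A2 at 2.80 (SE 0.12, adjusted p = 2.91e-08). The lower ones were ugt-31, described above, ugt-4, ugt-30 and cyp-44A1. Of these ugt-4 was not called without glp-1 D6 libraries 1 and 3 (-0.99), ugt-30 was not called on the muscle and neuron scale (-0.71) or at a pseudocount of 0.1 FPKM (adjusted p = 0.103 in limma), and cyp-44A1 lost its call when any of 8 single libraries was left out (adjusted p = 0.0558 to 0.0876 in limma).

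Oxidative stress genes split. Of 28 tested 11 were higher and 13 lower, with a median of -0.20 (0.15 over all genes), and on the muscle and neuron scale 6 were higher and 16 lower (-0.58). Mitochondrial antioxidants were lower, namely the superoxide dismutase gene sod-2 (-1.49, SE 0.12, adjusted p = 1.69e-06) and the peroxiredoxin gene prdx-3 (-1.46, SE 0.09, adjusted p = 3.24e-07), with prdx-3 at 66.3 ± 1.99 FPKM in glp-1 D6, 200.3 ± 7.63 in glp-1 D1, 186.4 ± 12 in WT D6 and 203 ± 13.5 in WT D1. The DAF-16 target sod-3, also a mitochondrial superoxide dismutase, had 19.9 ± 2.61 FPKM in glp-1 D6, 60.4 ± 2.69 in glp-1 D1, 2.73 ± 0.411 in WT D6 and 4.85 ± 0.952 in WT D1 and an interaction of -0.92 (SE 0.19, adjusted p = 0.00184). The catalase genes ctl-1 and ctl-2 were higher (1.29 and 1.23), ctl-1 not on the muscle and neuron scale (0.88). The methionine sulfoxide reductase gene msra-1 had 36.5, 33.6 and 43.4 FPKM in the glp-1 D6 libraries, 49.97, 51.3 and 47.9 FPKM in glp-1 D1, 15.7, 18.1 and 16.9 FPKM in WT D6 and 341, 233 and 259.7 FPKM in WT D1. WT D1 alone was high, and the interaction was 3.55 (SE 0.18, adjusted p = 6.31e-08).

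DAF-16 targets gave 9 higher, 6 lower and 8 not called of 23, with a median of -0.04 whose sign depended on the scaling (0.24 after quantile normalization, and -0.46 on the muscle and neuron scale with 5 higher and 10 lower). The list is not split by whether DAF-16 raises or lowers a member, so its counts and median do not measure DAF-16 activity. Higher were the antimicrobial saposin-like gene spp-9 at 3.87, dod-6 at 2.56 and the lysozyme gene lys-7, which reached 21741 ± 2141 FPKM in glp-1 D6 against 1756 ± 202 in glp-1 D1, and 2082 ± 169.2 in WT D6 against 437 ± 96.8 in WT D1 (interaction 1.36, SE 0.21, adjusted p = 0.000228). After quantile normalization the interaction of lys-7 was not called (0.37). Lower were the metallothionein gene mtl-1 (-2.1, SE 0.48, adjusted p = 0.00556) and the thaumatin family gene thn-1 (-1.26, SE 0.27, adjusted p = 0.00207), which rose in both genotypes and more in WT. The gene dod-23, which is downstream of DAF-16 by name, had 837, 871 and 843 FPKM in the glp-1 D6 libraries, 677, 779 and 750.1 FPKM in glp-1 D1, 816, 746 and 729.6 FPKM in WT D6 and 120, 107.3 and 142.4 FPKM in WT D1. It was low in WT D1 only, for an interaction of -2.42 (SE 0.13, adjusted p = 1.02e-07). The genes daf-16 itself and hlh-30, a regulator of autophagy, were not called (-0.16 and 0.12), though daf-16 was lower on the muscle and neuron scale (-0.58).

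Of 48 innate immune effectors of defence 18 were higher, 5 lower and 25 not called (median 0.63), whereas on the muscle and neuron scale 10 were higher and 10 lower (median 0.16). Of 18 epidermal antimicrobial peptide genes 9 were higher and 9 not called (median 0.66), and on that scale 6 were higher and 1 lower (median 0.23). The lysozyme gene lys-10 had 60.5, 72.4 and 97.1 FPKM in the glp-1 D6 libraries, 1.55, 0.563 and 0.972 FPKM in glp-1 D1, 14.7, 12.5 and 12.06 FPKM in WT D6 and 4.27, 3.09 and 3.81 FPKM in WT D1. It was lower in glp-1 than in WT at D1 and higher at D6, with an interaction of 3.68 (SE 0.28, adjusted p = 8.06e-07). The caenacin genes cnc-2 and cnc-4, antimicrobial peptides of the epidermis, had interactions of 2.61 (SE 0.29, adjusted p = 1.7e-05) and 2.19 (SE 0.27, adjusted p = 4.27e-05), and the peptide gene nlp-29 1.25 (SE 0.18, adjusted p = 0.000134), from levels of 163.2 ± 24.7 FPKM in glp-1 D6, 40.5 ± 2.23 in glp-1 D1, 47.1 ± 1.45 in WT D6 and 28.4 ± 5.62 in WT D1.

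Cuticle collagens, the main proteins of the worm's exoskeleton, had the lowest median interaction of the 38 lists. In this list 60 genes were lower, 12 higher and 53 not called, with a median of -1.33. With age 79 fell and 7 rose in glp-1, while 39 fell and 10 rose in WT, and median changes were -1.67 in glp-1 and 0.05 in WT. Without glp-1 D6 libraries 1 and 3, of which library 3 held the higher collagen levels, 82 were lower and 8 higher, with a median of -2.35; the lone glp-1 D6 library was then assumed to vary like the other groups. In col-93, an abundant adult collagen, levels were 5.29, 5.82 and 7.58 FPKM in the glp-1 D6 libraries, 4944, 5088 and 5435 FPKM in glp-1 D1, 21.5, 26.9 and 24.6 FPKM in WT D6 and 1734, 1878 and 1559 FPKM in WT D1. Both genotypes fell steeply, glp-1 further, and the interaction was -3.40 (SE 0.16, adjusted p = 4.1e-08). The same was seen for col-139 (-4.38, SE 0.31, adjusted p = 8.65e-07) and col-20 (-2.48, SE 0.17, adjusted p = 4.97e-07). Some collagens of lower level fell in glp-1 and were not called in WT. Among these were col-12 (-4.29, SE 0.86, adjusted p = 0.00248), col-13 (-3.11, SE 0.69, adjusted p = 0.00392), col-133 (-3.51, SE 0.88, adjusted p = 0.00789) and bli-6 (-3.12, SE 0.74, adjusted p = 0.00559). In col-12 glp-1 D6 libraries read 0.556, 0.387 and 7.62 FPKM against 41.8, 65.7 and 64.5 in glp-1 D1. For the adult marker col-19 the interaction was not called (0.05, adjusted p = 0.812), but it was lower on the muscle and neuron scale (-0.37) and higher after quantile normalization (0.92), and col-183 went the other way, with 90.9 ± 26.2 FPKM in glp-1 D6, 1.46 ± 0.598 in glp-1 D1, 1.39 ± 0.396 in WT D6 and 0.0863 ± 0.150 in WT D1 and an interaction of 4.08 (SE 0.31, adjusted p = 8.92e-07).

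Intermediate filament genes fell with age in WT and less so in glp-1. Of 14 genes of filaments and their organizers 9 were higher (6 on the muscle and neuron scale) and 2 lower, with a median of 0.75, and 12 fell with age in WT against 7 in glp-1. Beside ifa-4, the intestinal filament gene ifc-2 had 117.6, 136.9 and 140.2 FPKM in the glp-1 D6 libraries, 139.7, 133.5 and 120 FPKM in glp-1 D1, 19.7, 16.9 and 16.6 FPKM in WT D6 and 57.4, 41.5 and 41.6 FPKM in WT D1. Glp-1 libraries of the 2 ages overlapped and WT libraries did not, so the interaction was 1.34 (SE 0.17, adjusted p = 4.63e-05). The filament organizer gene ifo-1, which holds the intestinal filament network together, had 1.39 (SE 0.18, adjusted p = 6e-05), ifb-2 1.03 (SE 0.14, adjusted p = 6.61e-05) and the epidermal filament gene mua-6 0.87 (SE 0.16, adjusted p = 0.000772). The common epidermal partner ifb-1 had 0.62 (SE 0.09, adjusted p = 9.92e-05), not called on the muscle and neuron scale (0.22). The lower ones were ifc-1, at -1.53 (SE 0.36, adjusted p = 0.0039), which fell more in glp-1, and the nuclear lamin gene lmn-1, at -0.34 (SE 0.07, adjusted p = 0.0011), which rose in WT and was not called in glp-1. Junction and hemidesmosome genes, which anchor filaments at cell membranes, gave 8 higher and 4 lower calls among 19, with a median of 0.14 that turned to -0.31 on the muscle and neuron scale, where 3 were higher and 7 lower.

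Body wall muscle genes fell with age in both genotypes. The interaction gave 16 higher calls among 25 genes, the other 9 not being called. With age 24 fell in glp-1 and all 25 in WT, with median changes of -0.88 in glp-1 and -1.50 in WT. On the muscle and neuron scale, which uses muscle genes, 11 were higher and 5 lower. The myosin heavy chain gene unc-54 had 235.5 ± 44.3 FPKM in glp-1 D6, 633 ± 108.1 in glp-1 D1, 47.9 ± 7.70 in WT D6 and 244 ± 44.8 in WT D1, an interaction of 0.90 (SE 0.24, adjusted p = 0.00894) that was not called without glp-1 D6 libraries 1 and 3 (0.71). The alpha-actinin gene atn-1 was not called in glp-1 (-0.08) and fell in WT (-1.15), for 1.07 (SE 0.12, adjusted p = 1.37e-05). Of 20 basement membrane genes 11 were higher and 1, the integrin gene pat-3, was lower (median 0.61), while 7 were higher and 4 lower both on the muscle and neuron scale and after quantile normalization. Higher were the type IV collagen genes let-2 (0.96, SE 0.20, adjusted p = 0.0023) and emb-9 (0.79, SE 0.19, adjusted p = 0.00438) and the laminin gene epi-1 (1.22, SE 0.19, adjusted p = 0.000187), though emb-9 was not called without glp-1 D6 libraries 1 and 3 (0.61). Unlike the cuticle collagens, both type IV collagens fell less in glp-1 than in WT.

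Neuronal genes were higher for 10 and lower for 2 of 22, with a median of 0.31 that turned to -0.02 on the muscle and neuron scale, which is in part built on them and gave 2 higher and 4 lower. The synaptotagmin gene snt-1 had 12.5 ± 1.13 FPKM in glp-1 D6, 6.68 ± 0.612 in glp-1 D1, 1.80 ± 0.492 in WT D6 and 2.93 ± 0.0931 in WT D1, an interaction of 1.33 (SE 0.19, adjusted p = 0.000142). Of 30 FMRFamide-like peptide genes 15 were higher and 15 not called (median 0.51), while 3 were higher on the muscle and neuron scale and 6 after quantile normalization. Outside these lists, unc-129, a TGF-beta ligand of axon guidance, had 2.42, 2.84 and 3.05 FPKM in the glp-1 D6 libraries, 2.97, 2.75 and 2.69 FPKM in glp-1 D1, 21.4, 27.6 and 19.2 FPKM in WT D6 and 2.98, 3.68 and 2.36 FPKM in WT D1. It was high in WT D6 only, with an interaction of -2.58 (SE 0.22, adjusted p = 1.78e-06). The beta-tubulin gene tbb-4, of ciliated neurons, had the same pattern, 1.47 ± 0.539 FPKM in glp-1 D6, 1.45 ± 0.112 in glp-1 D1, 23.5 ± 3.42 in WT D6 and 3.50 ± 0.942 in WT D1 and -2.46 (SE 0.26, adjusted p = 1.11e-05).

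Of the hormone and longevity genes, 9 of 29 were higher and 3 lower, with a median of 0.17. The share of higher calls and the median were near those of all genes tested (30.9% and 0.15), so the list as a whole did not stand out. Its median turned to -0.29 on the muscle and neuron scale, where 3 were higher and 9 lower. The FoxA factor gene pha-4, which organises the pharynx and is needed for long life under dietary restriction, had 7.68, 8.69 and 7.70 FPKM in the glp-1 D6 libraries, 7.16, 7.72 and 5.61 FPKM in glp-1 D1, 1.29, 2.68 and 2.80 FPKM in WT D6 and 10.48, 12.4 and 10.6 FPKM in WT D1. WT D6 was low, and the interaction was 2.14 (SE 0.26, adjusted p = 2.76e-05). The nuclear receptor genes nhr-8 and nhr-80 were higher (1.22 (SE 0.25, adjusted p = 0.00175) and 0.79, SE 0.16, adjusted p = 0.00132), as were the kinase gene sgk-1 (0.89, SE 0.15, adjusted p = 0.000518) and the insulin receptor gene daf-2 (0.59, SE 0.14, adjusted p = 0.00459), and nhr-80, sgk-1 and daf-2 were not called on the muscle and neuron scale (0.45, 0.47 and 0.13). Insulin-like peptide genes went both ways, 6 higher and 5 lower of 26, with a median of 0.34. It turned to -0.17 on the muscle and neuron scale and to -0.03 after quantile normalization. Of the 26 genes 13 had a mean of at least 1 FPKM in all 4 groups, and the counts are given as a description. The gene ins-31 was high in WT D1 only (19.7 ± 1.26 FPKM, interaction 3.27, SE 0.30, adjusted p = 4.22e-06), and ins-2 was high in WT D6 only (16.9 ± 3.64 FPKM, interaction -2.59, SE 0.25, adjusted p = 5.01e-06). Autophagy and lysosome genes gave 17 higher and 3 lower calls among 36, with a median of 0.22 that turned to -0.18 on the muscle and neuron scale, where 3 were higher and 12 lower. The cathepsin D-like gene asp-4 led them, with 2236 ± 112.7 FPKM in glp-1 D6, 1116 ± 18.5 in glp-1 D1, 202 ± 19.1 in WT D6 and 306 ± 14.7 in WT D1 and 1.6 (SE 0.10, adjusted p = 3.01e-07), and the autophagy receptor gene sqst-1 had 0.71 (SE 0.16, adjusted p = 0.00256), not called on the muscle and neuron scale (0.28).

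By the median of the 82 genes checked above, germline genes stood near 0 in glp-1 at both ages. The oocyte and eggshell list nevertheless summed to 11304, 10630 and 12127 FPKM in glp-1 D6 and 5653, 5987 and 6595 in glp-1 D1. In WT it summed to 18036 to 23137 FPKM. The list's markers cpg-1, cpg-2, oma-1, oma-2, pos-1 and puf-5 together reached at most 73.1 FPKM in glp-1 D6 and 4.03 in glp-1 D1. In WT they summed to at least 6530 FPKM at D6 and 5100 at D1. Other genes of the list thus carried its sum in glp-1, and the sum does not describe these oocyte markers. The germline, oocyte and cell cycle lists held 7, 9 and 13 genes with a mean of at least 1 FPKM in all 4 groups. Levels of the 82 genes in glp-1 D6 went with libraries 1 and 3. Of 30 germline stem cell and meiosis genes 1 was higher, 6 lower and 23 not called, with a median of 0.06. The median turned to -0.76 on the muscle and neuron scale, where 22 were lower and none higher, and to -0.19 without these 2 libraries, where 10 were lower and 1 higher. The higher one, gld-1, had 7.24, 1.42 and 4.85 FPKM in glp-1 D6 libraries 1, 2 and 3 and 0.670, 0.490 and 0.698 in glp-1 D1, beside 664 ± 34.4 in WT D6 and 611 ± 5.10 in WT D1. The synaptonemal complex gene syp-1 was lower (-0.88, SE 0.15, adjusted p = 0.00056), with 0.139 ± 0.126 FPKM in glp-1 D6, 0.106 ± 0.0343 in glp-1 D1, 55.9 ± 1.97 in WT D6 and 29.2 ± 1.89 in WT D1, but was not called at a pseudocount of 0.1 FPKM (-0.89). Of 26 oocyte and eggshell genes 12 were higher and 14 not called, with a median of 1.25; without glp-1 D6 libraries 1 and 3, 12 were higher and 2 lower and the median was 0.39. Only 1 of the 26 was higher on the muscle and neuron scale (median 0.32), and 3 were after quantile normalization (0.99). Cell cycle and DNA replication genes were higher for 5 of 28 and not called for 23, and without these libraries 3 were higher and 9 lower. Their median of 0.33 turned to -0.22 without the libraries and to -0.34 on the muscle and neuron scale, where 2 were higher and 9 lower. For the eggshell gene cpg-2 the glp-1 D6 libraries read 25.8, 3.41 and 15.7 FPKM, in step with the germline traces of these libraries, whose part in the result was not tested. The call of cpg-2 was lost when any of 9 single libraries was left out and that of gld-1 for any of 5 (adjusted p = 0.0501 to 0.0648 in limma). In contrast cpar-1, a CENP-A-like histone gene, had 7.60, 7.42 and 8.56 FPKM in glp-1 D6, alike in all 3 libraries. Its glp-1 D1 libraries were near 0, at 0.261, 0.158 and 0.744 FPKM, and the interaction was 2.16 (SE 0.18, adjusted p = 1.69e-06 in limma). The gap junction gene inx-8 of the gonadal sheath, a somatic tissue that glp-1 worms keep, had 286 ± 24 FPKM in glp-1 D6, 106.2 ± 6.75 in glp-1 D1, 89.9 ± 4.50 in WT D6 and 74 ± 1.93 in WT D1 and an interaction of 1.14 (SE 0.10, adjusted p = 2.46e-06). In that list 6 of 15 sheath and spermatheca genes were higher and 9 not called, with a median of 0.27 that turned to -0.18 on the muscle and neuron scale, where 2 were higher and 2 lower.

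Of 25 molting and larval cuticle genes 6 were higher and 3 lower, with a median of 0.17 that turned to -0.17 on the muscle and neuron scale, to -0.39 after quantile normalization and to -0.01 without glp-1 D6 libraries 1 and 3. On the first and on the second of these scales 3 were higher and 6 lower. The 3 lower ones were the lipocalin-like gene let-653 (-1.08), the fibrillin-like gene fbn-1 (-0.85) and nhr-23 (-0.51), a nuclear receptor that drives the molting cycle; fbn-1 was not called without these libraries (-0.84). Of 13 pharynx genes 5 were higher and 8 not called, with a median of 0.35 (-0.02 on the muscle and neuron scale, where 3 were higher). Among them was the NK-2 homeobox gene ceh-22 of pharyngeal muscle at 0.97 (SE 0.24, adjusted p = 0.00585), not called after quantile normalization (0.48). Of 12 genes switched on in the embryo 6 were higher and 2 lower, with a median of 0.48 (-0.05 on the muscle and neuron scale, where 4 were higher and 4 lower). Only 4 of the 12 had a mean of at least 1 FPKM in all 4 groups. The others were low in at least 1 group, and the counts are given as a description. The T-box genes tbx-37 and tbx-38, near-identical copies, were the lower ones, with tbx-37 listed at 0 in every glp-1 library and at 5.81 ± 1.37 FPKM in WT D6 and 1.28 ± 0.386 in WT D1.

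**Figure D5:**
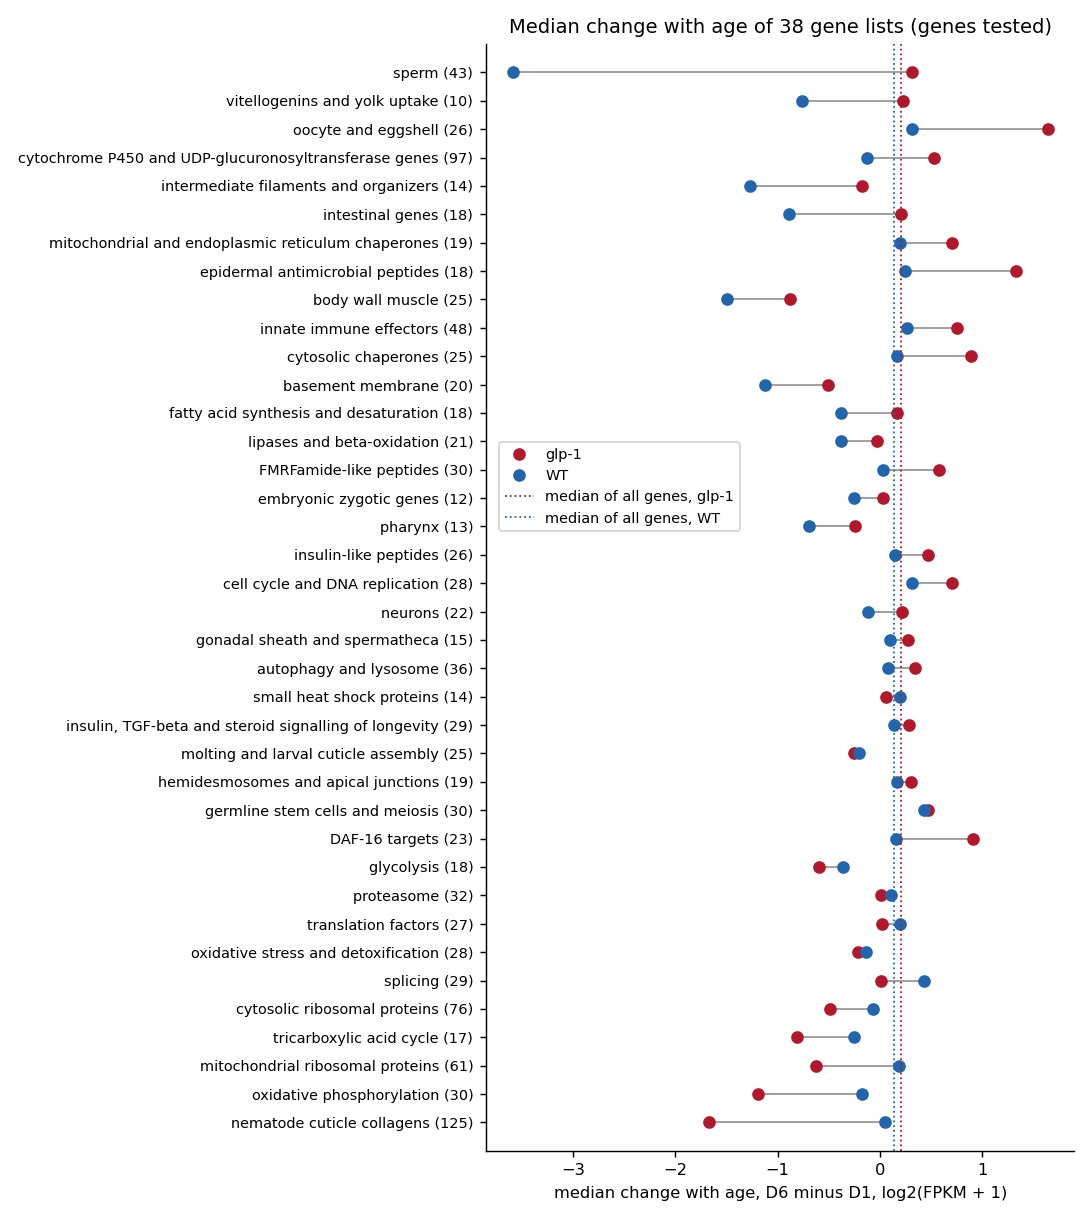
Median change with age (D6 minus D1, log2(FPKM + 1)) in glp-1 and in WT for the tested genes of 38 lists, ordered by the median interaction; the number of genes is in brackets and dotted lines mark the medians of all genes. Sperm genes are at the top (0.31 in glp-1, -3.59 in WT) and cuticle collagens at the bottom (-1.67 in glp-1, 0.05 in WT).

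Genes outside the lists also changed in a single genotype. The Onchocerca-related antigen gene ora-1 had 65.5, 61.7 and 45.2 FPKM in the glp-1 D6 libraries, 2.38, 1.89 and 7.35 FPKM in glp-1 D1, 14.4, 6.12 and 6.69 FPKM in WT D6 and 4.61, 3.27 and 4.36 FPKM in WT D1. Glp-1 D6 was high, with an interaction of 2.83 (SE 0.54, adjusted p = 0.00128). The homeobox gene ceh-62 had 13.7 ± 2.42 FPKM in glp-1 D6, 1.38 ± 0.460 in glp-1 D1, 1.26 ± 0.295 in WT D6 and 1.5 ± 0.251 in WT D1 and 2.78 (SE 0.25, adjusted p = 2.96e-06). The acyl-CoA synthetase gene acs-7 fell in WT and was not called in glp-1, with 11 ± 0.547 FPKM in glp-1 D6, 11.12 ± 0.904 in glp-1 D1, 1.79 ± 0.300 in WT D6 and 13.4 ± 2.29 in WT D1 and 2.35 (SE 0.18, adjusted p = 1.15e-06).

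The interaction can also be read as a change of the gap between genotypes. The gap had the same sign at both ages and was wider at D6 for 4069 of the 6468 calls, of which 2464 were higher and 1605 lower in glp-1. It was narrower at D6 for 840. It crossed over, with both gaps called, for 243 genes. Of all interaction calls 2.12% were lower in glp-1 at D1 and higher at D6, and 1.64% were higher at D1 and lower at D6. Crossing genes included ifa-4, acs-3, hbl-1 and pha-4, and on the other side ndx-3; col-93, with gaps of 1.58 at D1 and -1.82 at D6, and skr-12, a Skp1-related ubiquitin ligase gene with gaps of -1.23 and 2.22, were picked after their values were seen.

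By chromosome, the share of genes that rose in glp-1 and fell in WT was highest on the X. Of 1788 tested genes of the X 37.8% were higher and 8.22% lower, and 7.21% rose in glp-1 and fell in WT while 0.615% did the reverse. On the autosomes 25.4% to 35.9% were higher, 13.7% to 21.6% lower, 2.61% to 5.16% rose in glp-1 and fell in WT and 1.4% to 3.53% did the reverse. These shares rest on the deposited FPKM scale and were not tested.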

How the data were processed

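RNA of whole worms was sequenced in 12 libraries, 3 in each of 4 groups taken from the labels. The deposited values are FPKM per gene and library, made by the authors. HISAT2 2.0.4, DESeq2 1.6.3 and the assembly WBcel235 are named in the submitters' processing notes, which give them no role, and the counting rules, strand setting and filters are not stated there or in the labels. FPKM are relative to each library's total, so a large change in abundant RNA moves all other genes.

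A gene was kept when 3 or more libraries reached 1 FPKM (13614 of 20257), and log2(FPKM + 1) was fitted with limma 3.58.1 in R 4.3.3 (trend and robust), with 1 mean per group and 8 residual degrees of freedom. The interaction, the change with age in each genotype and the gap between genotypes at each age were contrasts of this fit. P-values were adjusted over all genes by Benjamini-Hochberg, and calls were made under 0.05. Fold changes on this scale understate those of low genes. Opposite genes had calls for the interaction and for both age changes. SDs are over 3 libraries.

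The genes, the 38 lists (1292 of 1359 entries found) and the tests were chosen with earlier results of these data known. Named genes were the 8 largest interactions in each opposite class and the 4 largest in each class that changed in a single genotype, among genes with a name of letters and number, group means of at least 1 FPKM and no overlap of ages where age was called; list members with large interactions were added, and others are named as known members. Of the gene names, 18142 matched the annotation, from which chromosomes and coordinates come, and 11 had been changed to dates. On simulated data for 13614 genes with 200 changed, the interaction test recovered 38.8%, 76.1% and 93.9% of genes changed by 1.5-, 2- and 4-fold, with 6 false calls. The changed genes were drawn from those with a mean log2(FPKM + 1) above 2, and the noise was normal and independent between genes. In the data 47.5% of genes were called, so these rates do not carry over to low genes or to the real calls. Depth was estimated from the smallest steps of FPKM over 8817 genes and may be off by a common factor. Alternatives were other pseudocounts, filters, 4 scalings, limma without trend and robust, a replicate block and each library left out. A search of promoters for motifs was not made, and no sequences were used here.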

Additional observations from a re-analysis of the deposited data

Results flagged for a closer look

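The genes picked by the naming rule all carry an interaction, that is, an age change that differed between genotypes in the test of the difference itself (limma, adjusted p under 0.05). Values are interactions on the log2(FPKM + 1) scale.

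Among genes that rose in glp-1 and fell in WT, values were 2.77 for ssp-10, 2.56 for ifa-4, 2.55 for cyp-25A3, 2.47 for acs-3, 2.34 for tyr-1, 2.3 for hbl-1, 2.26 for ppt-1 and 2.25 for cyp-14A5. Among those that fell in glp-1 and rose in WT, they were -3.64 for gst-24, -3.15 for col-180, -2.52 for ugt-31, -2.40 for prg-1, -2.29 for spd-5, -1.97 for col-111, -1.89 for ndx-3 and -1.87 for tag-281.

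Genes that rose in glp-1 and were not called in WT were the chaperone genes hsp-4 at 3.20 and daf-21 at 2.89, with ora-1 at 2.83 and ceh-62 at 2.78. Those that fell in glp-1 and were not called in WT were all collagens, col-12 at -4.29, col-133 at -3.51, bli-6 at -3.12 and col-13 at -3.11. In each of these 4 collagens, glp-1 D6 library 3 was the highest of its group. Genes that rose in WT and were not called in glp-1 were unc-129 at -2.58, tbb-4 at -2.46, dod-23 at -2.42 and mtl-2 at -1.54. Those that fell in WT and were not called in glp-1 were msp-31 at 4.97, ssq-1 at 2.90, acs-7 at 2.35 and pha-4 at 2.14.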

How the results depend on the processing

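Scaling mattered most. On the muscle and neuron scale the interaction was higher for 2118 genes and lower for 5254, and 1.04% of genes tested rose in glp-1 and fell in WT (4.07% on the deposited scale) while 3.13% did the reverse (2.36%); after quantile normalization 2.26% and 3.26% did, so the order of the opposite classes turned on both scales. Asking for at least a 2-fold difference left 1806 higher, 541 lower and 0.867% of genes that fell in glp-1 and rose in WT. On the muscle and neuron scale the sign turned for suca-1 (-0.113), hxk-1 (-0.072), rpl-11.2 (-0.074), eef-2 (-0.078), eif-3.F (-0.076), rpn-6.1 (-0.134), rpn-3 (-0.078), mlc-4 (-0.079), hcp-1 (-0.121), cyb-2.1 (-0.026), col-19 (-0.366), hsp-6 (-0.357) and the glp-1 gene (-0.432). After quantile normalization it turned for spl-1 (0.023), let-767 (0.114), gas-1 (0.505) and hsp-6 (-0.251). It turned for abf-2 at a pseudocount of 5 FPKM (0.165) and for nos-1 at 0.1 FPKM (1.029). The cause of each turn was not tested. With 1 library left out, higher calls numbered 3864 to 4091, lower calls 2011 to 2330, and the opposite classes 3.32% to 3.97% and 1.84% to 2.6% of genes. Without glp-1 D6 libraries 1 and 3, chosen after seeing the data, they were 3474, 2226, 2.86% and 2.67%, the lone library being assumed to vary like the others.

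Deviations of same-numbered libraries correlated at -0.144 to 0.146 over 18 pairs, and 1 pair exceeded 0.1, so the numbers were not taken to pair the libraries; with a replicate block there were 4122 higher and 2186 lower calls and 3.86% and 2.18% of genes with opposite ones. Whole worms, 3 libraries a group and shares of RNA limit all values, and genes near 0 FPKM in glp-1 have interactions that rest on WT.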

Other observations

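Families grouped by gene name, which were chosen after their values were seen, gave further patterns. C-type lectin genes (clec), many of which are induced by pathogens, were higher for 68, lower for 7 and not called for 48, with a median interaction of 0.84 against 0.15 over all genes (53 higher and 17 lower on the muscle and neuron scale); with age 49 rose and 24 fell in glp-1, while 22 rose and 62 fell in WT. Transthyretin-like genes (ttr) were higher for 28 and lower for 4 of 48 (median 0.75), and for 18 and 7 on the muscle and neuron scale. Peroxisome assembly genes (prx) were higher for 9 and lower for 1 of 11 (median 0.87), and higher for 5 on the muscle and neuron scale and for 4 after quantile normalization. Of these, prx-5, the receptor that imports peroxisomal enzymes, had 20.3 ± 1.24 FPKM in glp-1 D6, 20.4 ± 2.56 in glp-1 D1, 4.09 ± 1.05 in WT D6 and 8.65 ± 0.712 in WT D1, an interaction of 0.94 (SE 0.20, adjusted p = 0.00205) that was not called after quantile normalization (0.38). Aspartyl protease genes (asp) were higher for 8 of 12 and not called for 4 (median 0.82), and acyl-CoA synthetase genes (acs) were higher for 13 and lower for 2 of 20 (median 0.72; 10 and 5 on the muscle and neuron scale). MATH-domain genes (math) were higher for 13 of 21 and not called for 8 (median 0.65), and higher for 4 on the muscle and neuron scale and for 6 after quantile normalization.

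The F-box families of ubiquitin ligase adaptors gave different counts, which are a description because most members were low in at least 1 group. The fbxa genes were higher for 45, lower for 6 and not called for 55 (median 0.48), whereas the fbxb genes were higher for 3 and lower for 24 of 76 (median -0.37). With age 53 fbxa genes rose in glp-1 and 27 in WT, while 2 fbxb genes rose in glp-1 and 38 in WT. After quantile normalization fbxa counts were 15 higher and 14 lower, and on the muscle and neuron scale 18 higher and 20 lower, so the balance of fbxa turned with the scale while that of fbxb did not. Only 1 of the 76 fbxb genes had a mean of at least 1 FPKM in all 4 groups, against 32 fbxa genes, and copies within these families can share reads.

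Among families of chromatin and the nuclear pore, histone genes (his) were lower for 29 and higher for 5 of 62 (median -0.41), genes of SET-domain proteins (set), many of them histone methyltransferases, for 13 of 28 with 15 not called (median -0.40), and nucleoporin genes (npp) for 11 of 22 with 11 not called (median -0.28). On the muscle and neuron scale 39 histone, 24 set and 20 npp genes were lower, and at equal FPKM totals 27, 10 and 6 were. In each of these 3 families more members rose with age in WT (35, 20 and 17) than in glp-1 (11, 7 and 7). Over all genes tested 35.1% rose in WT and 39.1% in glp-1. Of the 62 histone genes 14 had a mean of at least 1 FPKM in all 4 groups, against 20 of 28 set genes and all 22 npp genes. Most histone genes were thus low in at least 1 group, and their counts are given as a description. Histone genes are near-identical copies, so single values are uncertain. Nuclear hormone receptor genes (nhr) were higher for 55 and lower for 12, with a median of 0.29 that turned to -0.01 on the muscle and neuron scale (16 higher and 38 lower) and to -0.10 after quantile normalization (14 higher and 35 lower). The nematode-specific peptide genes nspc, near-identical copies, were higher for 12 of 18 and not called for 6 (median 0.78), and higher for 6 on the muscle and neuron scale.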
